A study of Mus musculus with 12 samples.

Results

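In all, 9 genes of blood coagulation and plasminogen activation were followed across the 3 neutrophil groups of the study: F3, F7, F10, F5, F13a1, Thbd, Procr, Plau and Plaur. They are 9 of the 55335 genes listed in each count file and were picked by name and chosen on earlier values of these libraries, namely their CPM in the 3 groups, so their own differences between the groups are given as a description and without a test. Neutrophils had been sorted as CD45+ CD11b+ Ly6G+ F4/80- cells after enrichment for CD11b. The 3 groups hold 4 libraries each. PyMT TANs are tumor-associated neutrophils from the mammary tumors of PyMT mice, which carry the polyoma middle T oncogene as a transgene expressed in mammary epithelium. PyMT-Cxcr2-/- TANs come from the same kind of tumor in mice that also lack the chemokine receptor Cxcr2 in the germline, hence in every cell and not in neutrophils alone. WT BM neutrophils come from the bone marrow (BM) of tumor-free wild-type mice. All mice were FVB, 10 weeks old and kept under SOPF conditions. A TAN and a BM neutrophil differed in tissue, in the presence of a tumor and of the PyMT transgene, and in cell isolation. Tumors were minced and digested with a dissociation kit, whereas marrow was taken from the bones by centrifugation. PyMT-Cxcr2-/- TANs and WT BM neutrophils differed in Cxcr2 as well, and these differences cannot be told apart here. The labels number the replicates without naming animals, so the tests below measure the spread between these libraries.

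Coagulation starts when tissue factor (F3), a membrane protein, binds factor VII (F7) and activates factor X (F10). Activated factor X together with its cofactor factor V (F5) forms thrombin, and factor XIII (F13a1) then cross-links the fibrin. Thrombomodulin (Thbd) and the endothelial protein C receptor (Procr) turn thrombin towards the activation of protein C, which inactivates factor V, while urokinase (Plau) bound to its receptor (Plaur) converts plasminogen to plasmin, which dissolves fibrin. Neutrophils and macrophages in tumors are known to carry urokinase and its receptor, whereas most circulating coagulation factors are made in the liver.

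The libraries held between 25032704 and 51351569 counts on genes, and 3 counts corresponded to between 0.0584 and 0.12 CPM, counts scaled to a common library size, depending on the library. The targeted gene fitted the labels, with Cxcr2 at 2035 ± 199.6 CPM in WT BM neutrophils, 1186 ± 237 CPM in PyMT TANs and 9.48 ± 0.532 CPM after its deletion (SD, n = 4 each). The summed level of 7 neutrophil markers lay between 71895 and 95934 CPM in BM, from 17726 to 29200 CPM in PyMT-Cxcr2-/- TANs and from 9253 to 15160 CPM in PyMT TANs. In BM this sum was mostly S100a8 and S100a9, and 6 of the 7 markers fell in each TAN group. Csf3r, named after its values were seen, overlapped, at 3790 to 4319, 4107 to 5449 and 2938 to 4777 CPM in that order. Sums of 9 macrophage markers were 196.0 to 283.0 CPM in BM, 1287 to 2167 CPM in PyMT-Cxcr2-/- TANs and 1296 to 2624 CPM in PyMT TANs, and Trem2 among them had 7 counts in all, within a run of neighbouring genes that also had few. The 6 mammary epithelial markers summed to at most 0.514 CPM in BM, to 78.1 to 303.7 CPM in PyMT-Cxcr2-/- TANs and to 46.9 to 412.7 CPM in PyMT TANs. Endothelial markers, of the cells best known for Thbd and Procr, summed to 13.8 to 21.5 CPM in BM, 23.2 to 28.3 CPM in PyMT-Cxcr2-/- TANs and 23.9 to 41.3 CPM in PyMT TANs. Of these, named after their values were seen, Pecam1 made up 10.4 to 13.1, 13.5 to 18.1 and 13.3 to 24.9 CPM in that order. Kdr was at 0.279 to 1.12, 2.97 to 5.52 and 2.53 to 9.65 CPM, while Vwf overlapped between BM and each TAN group. In the same order of groups the sums were 0.168 to 1.46, 1.08 to 26.9 and 0.765 to 11.3 CPM for fibroblast markers. Of the 5 monocyte markers, 4 rose and 1 fell in each TAN group, so their sum of 651 to 864, 399 to 583 and 255 to 495 CPM followed Ly6c2 (these markers are named after their values were seen), which fell from 641 to 850 CPM in BM to 73.6 to 148 CPM in PyMT-Cxcr2-/- TANs and 14.9 to 31.3 CPM in PyMT TANs, whereas Cx3cr1 rose from at most 1.99 CPM to at least 119 CPM in each TAN library. The sum of the 5 eosinophil markers, 19.1 to 22.98, 51.0 to 68.9 and 102.5 to 183 CPM, was mostly Siglecf, at 14.8 to 18.7, 46.4 to 64.3 and 97.2 to 175 CPM, while Prg2 had 80 counts over the BM libraries against 4 and 6 and Epx 28 against 3 and 4. The part of such other cells in the differences described here was not tested, and in bulk samples fewer cells of a type and less RNA per cell cannot be told apart.

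In both TAN groups every library had higher levels of F3, F7, F10, F13a1, Procr and Plau than every BM library, and lower levels of F5 and Thbd. Plaur was lower in PyMT TANs, while PyMT-Cxcr2-/- TANs overlapped with BM. Against WT BM neutrophils, 6 of the 9 genes were past the thresholds (adjusted p under 0.05 and at least a 1.5-fold change in edgeR's quasi-likelihood test) as higher in PyMT TANs and 3 as lower, where 30.1% and 23.2% of the 17153 genes tested were, 53.3% in either direction. In PyMT-Cxcr2-/- TANs the counts were 6 higher and 2 lower, beside 34.4% and 25.1% of 17732 genes, 59.5% in either direction. The groups did not overlap for 6 higher and 3 lower genes in PyMT TANs (28.4% and 29.7% of all genes tested) and for 6 higher and 2 lower genes in PyMT-Cxcr2-/- TANs (32.5% and 33.3%). Both comparisons share the BM libraries, and nothing is read from these counts because the genes were chosen with them known. Log2 fold changes below are given ± their standard error (SE), and levels as CPM in replicates 1 to 4.

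**Figure D1:**
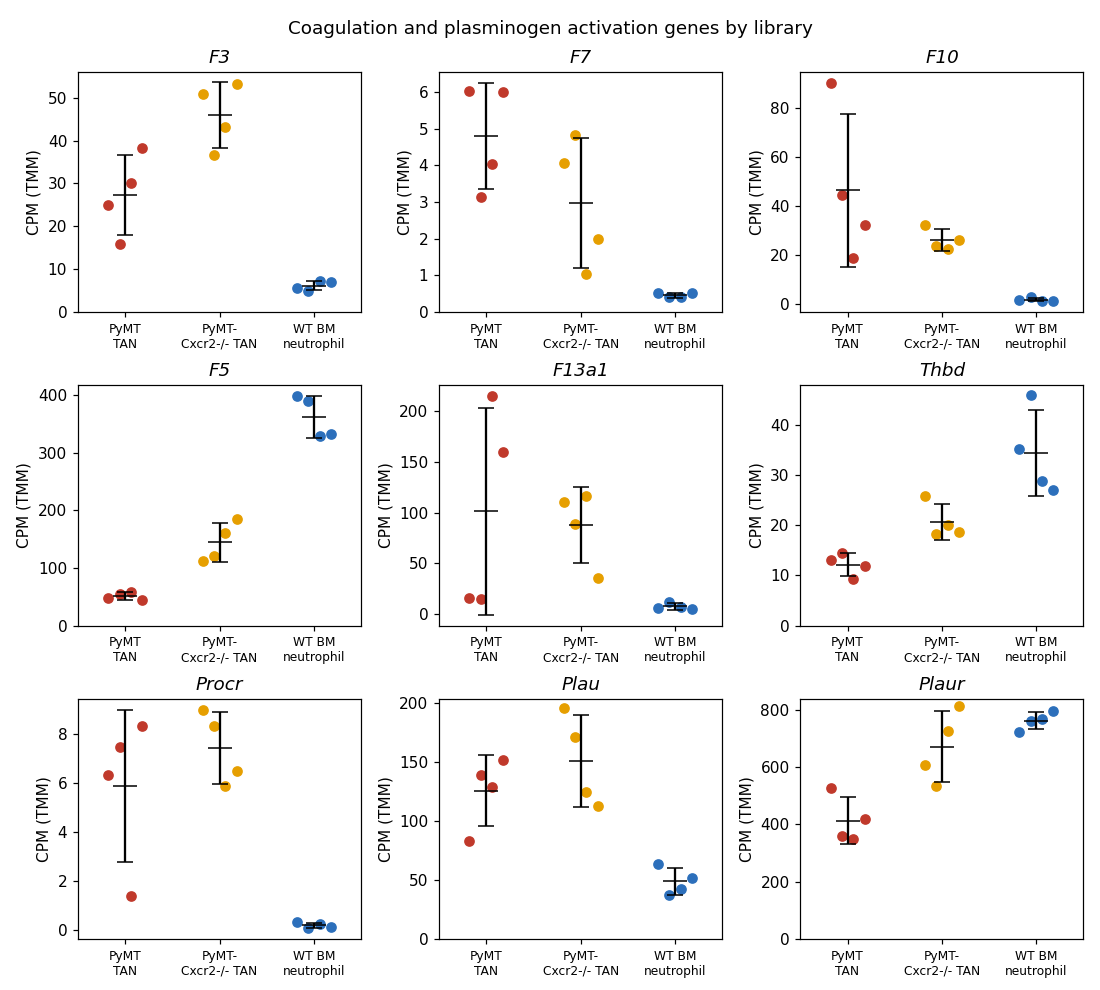
Level of each of the 9 genes in every library, in CPM with TMM normalization (y axis, linear, its own scale for each gene), for the 3 groups (x axis); points are the 4 libraries of a group, and bars give the mean ± SD. The F13a1 points of PyMT TANs fall into a low pair of 14.8 and 16.1 CPM and a high pair of 160.0 and 215 CPM, while the F5 points form 3 separate groups.

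F3 (ENSMUSG00000028128, chr3:121723537-121735048, plus strand, mm10) encodes tissue factor, the receptor that starts coagulation. In PyMT TANs its level was 25.0, 15.8, 30.1 and 38.1 CPM, in PyMT-Cxcr2-/- TANs 50.9, 36.5, 43.2 and 53.2 CPM, and in BM 5.57, 4.89, 7.17 and 7.04 CPM. Every TAN library was above every BM library, whereas the TAN groups met, since the highest PyMT TAN lay above the lowest PyMT-Cxcr2-/- TAN. The log2 fold change against BM was 2.23 ± 0.27 (SE) in PyMT TANs and 3.01 ± 0.16 in PyMT-Cxcr2-/- TANs, and 0.72 ± 0.24 between the TAN groups.

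F7 (ENSMUSG00000031443, chr8:13026034-13035809, plus strand), the protease that tissue factor binds, had the lowest mean level per kb of exon in both TAN groups. In PyMT TANs its level was 6.03, 3.14, 4.02 and 6.0 CPM, in PyMT-Cxcr2-/- TANs 4.06, 4.83, 1.04 and 1.98 CPM, and in BM 0.509, 0.405, 0.400 and 0.531 CPM, where it rested on 13 to 19 counts a library. BM stood apart from both TAN groups, which overlapped. Against BM the difference was 3.45 ± 0.39 on the log2 scale in PyMT TANs and 2.80 ± 0.46 in PyMT-Cxcr2-/- TANs, and -0.72 ± 0.46 between them.

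F10 (ENSMUSG00000031444, chr8:13037308-13056676, plus strand), which encodes the protease that forms thrombin, starts 1498 bases after the end of F7 on the same strand, and no other annotated gene lies in the span of these 2 genes. In PyMT TANs its level was 90.5, 44.5, 18.8 and 32.2 CPM, in PyMT-Cxcr2-/- TANs 32.3, 23.7, 22.6 and 26.4 CPM, and in BM 1.95, 2.83, 1.46 and 1.48 CPM. The PyMT TANs enclosed all 4 PyMT-Cxcr2-/- TANs, with replicate 1 far above the rest. Compared with BM, the log2 fold change was 4.66 ± 0.46 in PyMT TANs and 3.89 ± 0.22 in PyMT-Cxcr2-/- TANs, and -0.85 ± 0.38 between the TAN groups. Without PyMT TAN replicate 1, the PyMT TAN mean went from 46.5 to 31.8 CPM.

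F5 (ENSMUSG00000026579, chr1:164151838-164220277, plus strand), the cofactor of F10, was highest in BM and lowest in PyMT TANs. Its level was 398, 389, 329 and 333 CPM in BM, 112, 121, 161 and 185 CPM in PyMT-Cxcr2-/- TANs, and 47.3, 55.0, 58.4 and 44.5 CPM in PyMT TANs. No library of one group reached into another. On the log2 scale the difference was -2.74 ± 0.14 in PyMT TANs and -1.21 ± 0.15 in PyMT-Cxcr2-/- TANs against BM. Between the TAN groups it was 1.46 ± 0.18, a 2.75-fold higher level in PyMT-Cxcr2-/- TANs. The sum of 7 immature neutrophil markers, genes of the granules made in bone marrow, had the same order of groups, with 425 to 730 CPM in PyMT TANs, 1960 to 6803 CPM in PyMT-Cxcr2-/- TANs and 30680 to 48184 CPM in BM. Its part in the level of F5 was not tested. An exon of F5 overlaps Gm16548 on the opposite strand, and since the strand setting of the counting was not given in the sources used here, reads of the 2 genes may be mixed.

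F13a1 (ENSMUSG00000039109, chr13:36867178-37050244, minus strand) encodes the catalytic subunit of factor XIII, which macrophages and platelets are known to hold. In PyMT TANs its level was 16.1, 14.8, 215 and 160.0 CPM, in PyMT-Cxcr2-/- TANs 111, 88.7, 117 and 35.2 CPM, and in BM 6.29, 12.5, 6.89 and 5.0 CPM. PyMT TAN replicates 1 and 2 lay just above the highest BM library, and replicates 3 and 4 above every PyMT-Cxcr2-/- TAN. The highest PyMT TAN held 14.5 times the lowest, the widest spread of the 9 genes within a group. Against BM its log2 fold change was 3.83 ± 0.83 in PyMT TANs and 3.65 ± 0.44 in PyMT-Cxcr2-/- TANs, and between the TAN groups it was -0.25 ± 0.86, from -0.61 to 0.63 over the alternative settings. Without PyMT TAN replicate 3 the PyMT TAN mean fell from 101.2 to 63.5 CPM, and the log2 fold changes were 3.14 against BM and 0.44 between the TAN groups. Mrc1, a macrophage mannose receptor named here after its values were seen, stood at 15.7, 30.8, 245 and 202 CPM in the PyMT TANs, at 109, 89.6, 129 and 42.7 CPM in the PyMT-Cxcr2-/- TANs and at 1.45 to 3.70 CPM in BM. Mrc1 is 1 of the 9 macrophage markers, and others of them were not split in this way in PyMT TANs, where C1qa stood at 156, 351, 399 and 286 CPM and Csf1r at 717, 812, 860 and 542 CPM. In PyMT-Cxcr2-/- TANs C1qa was at 328, 339, 197 and 151 CPM, an order of libraries other than that of F13a1. Mrc1 had the order of F13a1 in these libraries. The 6 mammary epithelial markers summed to 46.9, 59.1, 284 and 413 CPM in the PyMT TANs, low in replicates 1 and 2 like F13a1. In the PyMT-Cxcr2-/- TANs they summed to 237, 304, 78.1 and 115 CPM, again another order. Of the monocyte markers, Ccr2, named after its values were seen, stood at 31.6, 39.4, 82.3 and 92.3 CPM in the PyMT TANs. In the PyMT-Cxcr2-/- TANs Ccr2 was at 81.7, 64.4, 72.4 and 43.1 CPM, lowest in replicate 4 like F13a1. Cx3cr1 stood at 119, 291, 221 and 185 CPM in the PyMT TANs and at 292, 261, 159 and 133 CPM in the PyMT-Cxcr2-/- TANs. The sum of 6 platelet and megakaryocyte markers was 13.3 to 19.4 CPM in PyMT TANs, 17.5 to 21.1 CPM in PyMT-Cxcr2-/- TANs and 18.1 to 33.0 CPM in BM. The part of macrophage, monocyte and epithelial RNA in F13a1 was not tested, and an exon of F13a1 overlaps Gm30489 on the opposite strand.

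**Figure D2:**
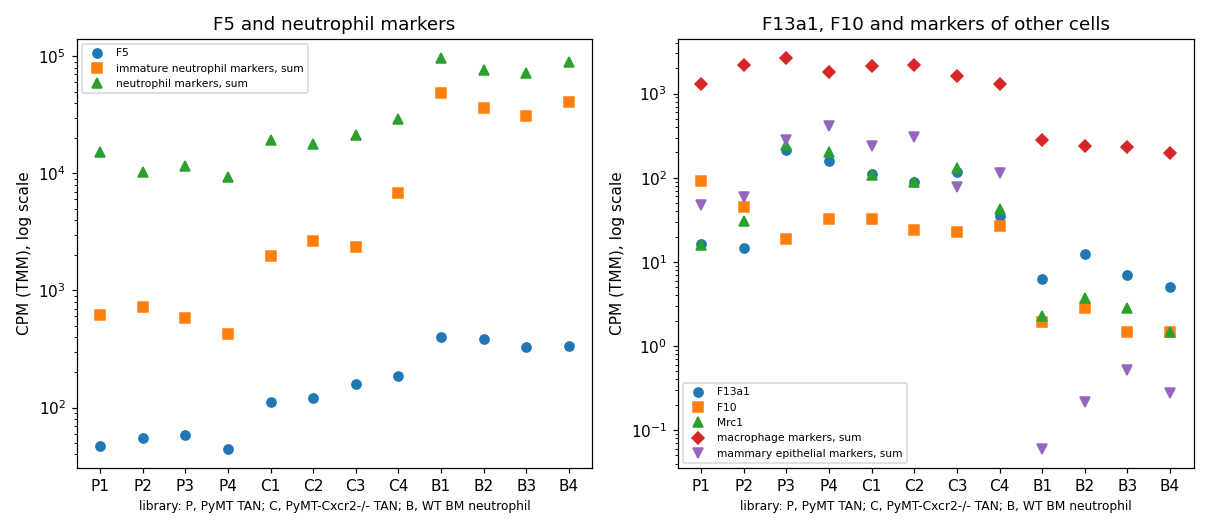
Level in each of the 12 libraries (x axis, P for PyMT TAN, C for PyMT-Cxcr2-/- TAN, B for WT BM neutrophil) in CPM on a log axis; left, F5 with the sums of neutrophil and immature neutrophil markers, and right, F13a1 and F10 with Mrc1 and the sums of macrophage and mammary epithelial markers. F13a1 and Mrc1 lie close together in P1, P3, P4 and the C libraries, while in P2 they are at 14.8 and 30.8 CPM. F10 is highest in P1, where F13a1 is at 16.1 CPM.

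Thbd (ENSMUSG00000074743, chr2:148404466-148408188, minus strand), which encodes the thrombin receptor of the protein C pathway, was lower in TANs. Its level was 35.3, 46.0, 28.8 and 27.1 CPM in BM, 25.9, 18.3, 19.98 and 18.6 CPM in PyMT-Cxcr2-/- TANs, and 13.1, 14.4, 9.24 and 11.9 CPM in PyMT TANs. The 3 groups did not overlap, with PyMT-Cxcr2-/- TANs between the other groups as for F5. The difference from BM was -1.41 ± 0.21 on the log2 scale in PyMT TANs and -0.61 ± 0.17 in PyMT-Cxcr2-/- TANs, and 0.73 ± 0.20 between the TAN groups. The PyMT-Cxcr2-/- TAN difference from BM lay close to the 1.5-fold threshold and fell under it without PyMT-Cxcr2-/- TAN replicate 2, 3 or 4 or without BM replicate 2, which left 1 lower gene in that comparison instead of 2.

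Procr (ENSMUSG00000027611, chr2:155751117-155755471, plus strand) encodes the receptor that presents protein C to thrombomodulin. Its level was 8.99, 8.34, 5.86 and 6.50 CPM in PyMT-Cxcr2-/- TANs and 6.33, 7.48, 1.40 and 8.34 CPM in PyMT TANs. In BM it was 0.300, 0.0622, 0.229 and 0.112 CPM, which stands for 10, 2, 8 and 4 counts, so that the BM level is known only within a wide counting error and the gene passed the low-count filter through the TAN libraries alone. PyMT TAN replicate 3 was the low library among the TANs but still above BM. The log2 fold change of 5.12 ± 0.67 and 5.49 ± 0.37 against BM was the highest of the 9 genes in each TAN group, and between the TAN groups it was 0.30 ± 0.43.

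Plau (ENSMUSG00000021822, chr14:20836660-20843385, plus strand), the gene of urokinase, stood at 82.9, 139, 129 and 152 CPM in PyMT TANs, at 195, 171, 124 and 112 CPM in PyMT-Cxcr2-/- TANs, and at 63.6, 37.4, 42.6 and 51.4 CPM in BM. All TAN libraries were above BM, and the TAN groups overlapped over much of their range. Fitted log2 fold changes were 1.45 ± 0.22 and 1.75 ± 0.20 against BM for PyMT and PyMT-Cxcr2-/- TANs, and 0.22 ± 0.22 between the TAN groups.

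Plaur (ENSMUSG00000046223, chr7:24462484-24475968, plus strand), the gene of the urokinase receptor, had the highest mean level per kb of exon in each group. In PyMT TANs its level was 526, 360, 348 and 417 CPM, in PyMT-Cxcr2-/- TANs 607, 534, 724 and 813 CPM, and in BM 723, 759, 768 and 797 CPM. PyMT TANs were below both other groups, and the PyMT-Cxcr2-/- TANs spread from below to above the BM range. From BM it differed by -0.81 ± 0.14 on the log2 scale in PyMT TANs and by -0.07 ± 0.13 in PyMT-Cxcr2-/- TANs, while the log2 fold change between the TAN groups was 0.67 ± 0.17. With library totals as the only scaling, the PyMT TAN difference from BM was -0.37, smaller than 1.5-fold.

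The direct comparison of the TAN groups set tumors without Cxcr2 against tumors with it. According to the paper, the tumors without Cxcr2 were also heavier and held a larger share of neutrophils and a smaller share of macrophages. In a comparison of these TAN groups such differences cannot be told apart from the loss of Cxcr2 in the neutrophils. The 9 genes were chosen on their levels in these groups too, so the counts that follow describe them and nothing is read from them. Among the 9 genes F5 alone was past the thresholds there, as higher in PyMT-Cxcr2-/- TANs, beside 1.38% of the 18463 genes tested that were higher and 0.596% that were lower, 1.98% in either direction. No member was lower past the thresholds with edgeR or with DESeq2, which counted 4 higher, and at an unadjusted p under 0.05 edgeR gave 4 higher and 1 lower. The groups did not overlap for F5, Plaur and Thbd, all 3 higher in PyMT-Cxcr2-/- TANs, as for 6.89% of all genes tested, against 5.05% lower. The median log2 fold change of the 9 genes was 0.30 in this comparison, beside -0.07 for all genes tested, and 2.23 and 2.80 in PyMT and PyMT-Cxcr2-/- TANs against BM, beside 0.09 in each. Of 7 neutrophil markers 4 rose, and of 6 immature neutrophil markers tested 3 rose, in PyMT-Cxcr2-/- against PyMT TANs, while 0 of 8 macrophage markers tested passed in either direction with edgeR. The part of these markers in F5, Plaur and Thbd was not tested.

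**Figure D3:**
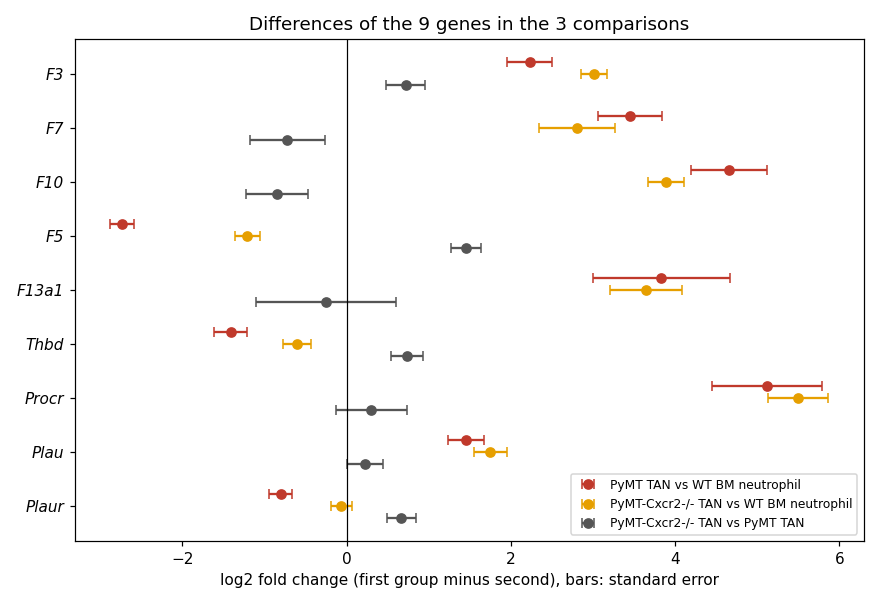
Log2 fold change (x axis, first group minus second) of the 9 genes (y axis) in the 3 comparisons, with the standard error as bars. Procr lies farthest to the right with 5.12 and 5.49 and F5 farthest to the left with -2.74, and F13a1 has the widest bars.

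Levels were set against each other between genes as CPM per kb of exon. In PyMT TANs Plaur was at 157.8 ± 30.9 and Plau at 53.1 ± 12.7 CPM per kb (SD, n = 4), above the other genes. F10, F13a1, F3 and F5 followed with 17.02, 15.02, 10.8 and 6.90 CPM per kb, each with a range that met that of its neighbour, and then Thbd, Procr and F7 with 3.27, 2.90 and 2.58 CPM per kb, likewise not separated. In PyMT-Cxcr2-/- TANs Plaur was at 255.9 ± 47.3 and Plau at 63.7 ± 16.5 CPM per kb. F5, F3, F13a1 and F10 came next with 19.4, 18.2, 13.03 and 9.62 CPM per kb, not separated from their neighbours, before Thbd with 5.55, Procr with 3.65 and F7 with 1.60 CPM per kb. BM neutrophils had another order, with Plaur at 291.0 ± 11.6, F5 at 48.8 ± 4.91, Plau at 20.6 ± 4.83 and Thbd at 9.21 ± 2.30 CPM per kb. Below them came F3 with 2.44, F13a1 with 1.14 and F10 with 0.707 CPM per kb, the last pair overlapping, and F7 with 0.248 and Procr with 0.0864 CPM per kb. F5 thus held the second place in BM, the third in PyMT-Cxcr2-/- TANs and the sixth in PyMT TANs.

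The gene closest in pattern was found for each member as the one with the smallest root mean square difference between log2 CPM values over the 12 libraries, after each gene's own mean was taken off, among 11091 or 11092 genes. For Plaur it was Kdm7a (0.07), for Plau Cd68 (0.16), for Thbd Entpd7 (0.21) and for F5 Flna (0.22). For F3 it was Coq10b (0.32), for F10 Cxcl3 (0.38), for F7 Ddx28 (0.40), for Procr AI504432 (0.56) and for F13a1 Nxpe5 (0.60). The distance was smallest for Plaur and largest for F13a1 and Procr. All of them share the same libraries, and no test was made.

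The 250 bases before the start of transcription were read for 7 of the 9 genes from RefSeq (GRCm38.p6), with 8 windows since F13a1 has 2 starts, and Plau and Thbd were not in the table. They are shown for F3, higher in TANs, for F10, higher in TANs and the neighbour of F7, and for F5 and Plaur. F5 and Plaur were higher in every PyMT-Cxcr2-/- TAN than in every PyMT TAN, F5 alone past the thresholds. Capitals mark the matches of 6 motifs searched on both strands, for AP-1, Sp1, PU.1, the hypoxia response, the TATA box and NF-kB. The windows lie at chr3:121723287-121723536 for F3, chr8:13037058-13037307 for F10, chr1:164151585-164151834 for F5 and chr7:24462233-24462482 for Plaur, all on the plus strand and written 5′ to 3′.
F3: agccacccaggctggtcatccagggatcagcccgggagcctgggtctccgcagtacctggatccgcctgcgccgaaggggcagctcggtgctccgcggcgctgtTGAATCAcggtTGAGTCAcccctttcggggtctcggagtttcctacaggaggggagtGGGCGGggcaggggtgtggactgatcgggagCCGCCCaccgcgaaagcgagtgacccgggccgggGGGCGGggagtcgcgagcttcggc
F10: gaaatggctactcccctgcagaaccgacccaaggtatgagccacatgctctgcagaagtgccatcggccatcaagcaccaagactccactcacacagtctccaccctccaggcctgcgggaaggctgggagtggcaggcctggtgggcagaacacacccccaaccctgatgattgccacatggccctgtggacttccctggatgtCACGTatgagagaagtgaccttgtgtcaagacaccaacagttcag
F5: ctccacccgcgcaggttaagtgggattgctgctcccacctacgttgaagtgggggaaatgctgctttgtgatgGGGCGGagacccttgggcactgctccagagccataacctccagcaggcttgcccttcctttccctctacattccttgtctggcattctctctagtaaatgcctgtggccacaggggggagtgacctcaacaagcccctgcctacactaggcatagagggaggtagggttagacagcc
Plaur: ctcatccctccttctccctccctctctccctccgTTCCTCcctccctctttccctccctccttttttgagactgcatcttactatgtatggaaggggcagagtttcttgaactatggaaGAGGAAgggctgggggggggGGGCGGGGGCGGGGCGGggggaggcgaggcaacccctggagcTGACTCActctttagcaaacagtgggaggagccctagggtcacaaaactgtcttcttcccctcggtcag
The AP-1 letters TGANTCA were found in 3 of the 8 windows, those of F3, Procr and Plaur, beside 6.75% of 32851 promoters of the same length. F3 held a pair of AP-1 matches at -146 to -140 and -135 to -129 from the start, Procr one at -154 to -148 and Plaur one at -69 to -63. Sp1 matches (GGGCGG) stood in F5, F3 and Plaur, beside 32.7% of promoters, and of the 3 in Plaur the last 2 share a base. PU.1 matches (GAGGAA) stood in Plaur, F7 and F13a1, beside 23.3%, and the hypoxia response letters ACGTG in F10, beside 16.6%. No window held TATAAA, the TATA box (12.4% of promoters) or the NF-kB consensus (7.25%), which says only that these letters are not in these windows. A match describes the sequence and not the binding of a factor.

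The other genes of the pathway were taken from a list of 43, made up of 12 procoagulant factors, 6 genes of factor maturation and membrane surface, 9 anticoagulants, 12 genes of the plasminogen system and 4 protease-activated receptors. Against BM, 25 of them could be tested in PyMT TANs, of which 12 rose, 4 fell and 9 passed in neither direction, beside the 30.1% and 23.2% of all genes. In PyMT-Cxcr2-/- TANs, 27 were tested, of which 15 rose, 4 fell and 8 did neither, beside 34.4% and 25.1%. The median log2 fold change of the tested genes was 1.57 and 1.16, beside 0.09 for all genes tested in each comparison. Of those that rose, 6 of 12 in PyMT TANs and 9 of 15 in PyMT-Cxcr2-/- TANs reached the minimum of the low-count filter in fewer than 4 BM libraries, so they would not have been tested on their BM levels and passed through the TAN libraries, and nothing is read from these counts and medians. Likewise 1 of the 4 that fell in PyMT-Cxcr2-/- TANs, F2rl3, reached it in every BM library but not in every TAN. Of the anticoagulants, 4 of 5 tested genes rose in each TAN group, with Tfpi and Pros1 at that minimum in 0 and 3 BM libraries, while of the procoagulant factors 0 of 4 rose or fell in PyMT TANs with edgeR (at an unadjusted p under 0.05, 0 rose and 1 fell, and with DESeq2 1 and 1) and 1 of 5 rose and 1 fell in PyMT-Cxcr2-/- TANs. The one that rose there was F9, named like F2rl3 after its values were seen, with 0 counts in all 4 BM libraries and 18 to 96 counts in these TANs, so that its direction was fixed by the filter. F9 was not tested in PyMT TANs, where it had 0 to 50 counts.

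Among the anticoagulants, Pros1, the gene of protein S, the cofactor of protein C, rose from 0.370 ± 0.114 CPM in BM to 23.1 ± 14.6 CPM in PyMT TANs (log2 fold change 6.06 ± 0.58, edgeR adjusted p = 6.17e-06). In PyMT-Cxcr2-/- TANs it reached 15.6 ± 5.64 CPM (5.52 ± 0.35, edgeR adjusted p = 2.64e-08). Pros1 had 8 to 16 counts in a BM library and reached the filter minimum in 3 of them. It was thus tested through the TAN libraries, and its adjusted p carries that limit. Its level was 7.37, 13.99, 34.97 and 36.2 CPM in PyMT TANs, low in replicates 1 and 2 like the mammary epithelial sum. In PyMT-Cxcr2-/- TANs it was 17.7, 21.7, 14.7 and 8.29 CPM, another order than that sum. The macrophage markers summed to 2137, 2167, 1638 and 1287 CPM in these libraries, the same order as Pros1. In the PyMT TANs they summed to 1296, 2181, 2624 and 1793 CPM, another order than Pros1. The part of other cells in Pros1 was not tested. Tfpi, the inhibitor of tissue factor with factor VII, was at 1.36, 4.48, 8.81 and 4.66 CPM in PyMT TANs and had only 6, 2, 8 and 8 counts in the BM libraries, or 0.0622 to 0.229 CPM. It could be tested only because it was high in TANs, and its log2 fold change of 4.86 ± 0.67 (edgeR adjusted p = 8.58e-05) rests on a BM level with a wide counting error. The same limit holds for its log2 fold change of 4.32 ± 0.46 in PyMT-Cxcr2-/- TANs, where its mean was 3.27 CPM. Serpind1, heparin cofactor II and a thrombin inhibitor, rose in PyMT TANs from 1.12 to 3.66 CPM (1.78 ± 0.36, edgeR adjusted p = 0.00129). It also rose in PyMT-Cxcr2-/- TANs, to 2.69 CPM (1.38 ± 0.25, edgeR adjusted p = 0.000268).

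In the plasminogen system, 4 of 8 tested genes rose and 2 fell in PyMT TANs, and 6 of 9 rose and 2 fell in PyMT-Cxcr2-/- TANs. Lrp1, an endocytic receptor that takes up proteases in complex with inhibitors, rose from 10.6 ± 2.56 CPM in BM to 553 ± 175 CPM in PyMT TANs (5.79 ± 0.29, edgeR adjusted p = 8.30e-08) and to 617 ± 222 CPM in PyMT-Cxcr2-/- TANs (5.98 ± 0.31, adjusted p = 2.26e-08). Lrp1 is also known as a gene of macrophages, whose markers were higher in the TAN libraries, 8 of 8 tested in each comparison, and their part in these values was not tested.

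S100a10 and Anxa2 encode the subunits of a plasminogen receptor complex, and they moved in opposite directions. S100a10 rose from 1.03 to 14.3 CPM in PyMT TANs (3.89 ± 0.59, edgeR adjusted p = 0.00018) and to 13.7 CPM in PyMT-Cxcr2-/- TANs (3.86 ± 0.37, adjusted p = 1.08e-06). Its level was 4.25, 8.01, 24.2 and 20.9 CPM in the PyMT TANs, low in replicates 1 and 2 like the mammary epithelial sum. In the PyMT-Cxcr2-/- TANs S100a10 stood at 17.9, 14.97, 15.3 and 6.77 CPM, another order than that sum. Mrc1 and Ccr2 are named here after their values were seen. In the PyMT TANs Mrc1, at 15.7, 30.8, 245 and 202 CPM, had the order of S100a10, and Ccr2 had another. In the PyMT-Cxcr2-/- TANs Ccr2, at 81.7, 64.4, 72.4 and 43.1 CPM, had the order of S100a10, and Mrc1 had another. The macrophage sum had another order than S100a10 in both TAN groups. The part of other cells in S100a10 was not tested. Anxa2 fell from 1352 ± 126.7 CPM in BM to 409.9 ± 36.3 CPM in PyMT TANs (-1.64 ± 0.12, edgeR adjusted p = 8.92e-07) and to 649 ± 80.2 CPM in PyMT-Cxcr2-/- TANs (-0.94 ± 0.12, adjusted p = 1.29e-05). An exon of Anxa2 overlaps Gm16144 on the opposite strand. Serpine2, protease nexin 1, fell from 7.83 CPM to 2.47 CPM in PyMT TANs (-1.57 ± 0.55, edgeR adjusted p = 0.0299) and to 3.07 CPM in PyMT-Cxcr2-/- TANs (-1.23 ± 0.22, adjusted p = 0.00025). The fall in PyMT TANs lost its call without PyMT TAN replicate 1 or 2 or without BM replicate 2 or 4 (edgeR adjusted p between 0.051 and 0.0621), and without PyMT TAN replicate 3 it was -2.33.

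Lman1 and Mcfd2, which together carry factor V and factor VIII out of the endoplasmic reticulum, rose in both TAN groups. Lman1 went from 5.85 CPM in BM to 18.4 CPM in PyMT TANs (1.74 ± 0.32, edgeR adjusted p = 0.000657) and to 18.4 CPM in PyMT-Cxcr2-/- TANs (1.78 ± 0.25, adjusted p = 2.50e-05). Mcfd2 went from 28.3 CPM to 60.7 CPM (1.18 ± 0.12, edgeR adjusted p = 1.08e-05) and 48.0 CPM (0.88 ± 0.11, adjusted p = 9.35e-06) in the same order, and neither passed the test between the TAN groups (edgeR adjusted p = 0.986 for Lman1 and 0.162 for Mcfd2). F5 itself was lower in both TAN groups than in BM. Ano6, a scramblase that exposes phosphatidylserine for the assembly of coagulation complexes, fell from 129.4 to 74.4 CPM in PyMT TANs (-0.72 ± 0.12, edgeR adjusted p = 0.000373), with exons that overlap genes on the opposite strand. In PyMT-Cxcr2-/- TANs Ano6 was at 94.3 CPM, below BM without overlap but by less than 1.5-fold (-0.34 ± 0.10). F2rl2, the protease-activated receptor 3, fell from 27.8 to 17.4 CPM in PyMT TANs (-0.59 ± 0.15, edgeR adjusted p = 0.00557), just past the 1.5-fold threshold, and not past it without PyMT TAN replicate 3 or 4 (-0.55 and -0.56). In PyMT-Cxcr2-/- TANs F2rl2 was at 21.7 CPM, likewise below BM without overlap and by less than 1.5-fold (-0.24 ± 0.12). With library totals as the only scaling, Ano6, F2rl2 and Serpine2 lost their calls in PyMT TANs (-0.27, -0.15 and -1.13).

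Between the TAN groups, 29 genes of the list were tested and 1 rose in PyMT-Cxcr2-/- TANs, namely Anxa2, with a log2 fold change of 0.63 ± 0.13 (edgeR adjusted p = 0.0394). None fell with edgeR, and at an unadjusted p under 0.05 there were 2 higher and 2 lower, while DESeq2 called 1 higher and 0 lower. Anxa2 had 462, 400.3, 400.1 and 377 CPM in the PyMT TANs and 601, 576, 662 and 756 CPM in the PyMT-Cxcr2-/- TANs, without overlap. Its call was lost in 7 of the 8 fits without 1 library of these groups, the exception being the one without PyMT TAN replicate 1, with an adjusted p between 0.0528 and 0.150.

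**Figure D4:**
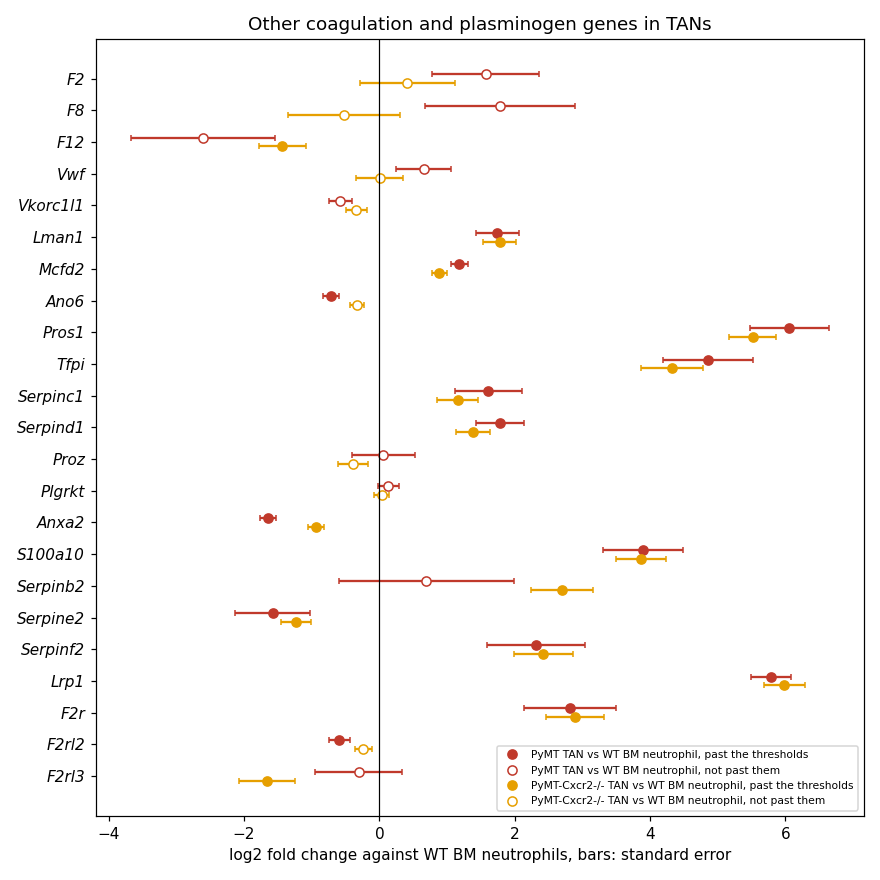
Log2 fold change against WT BM neutrophils (x axis) of 23 other coagulation and plasminogen genes tested in both comparisons (y axis), with the standard error as bars, for PyMT TANs in red and PyMT-Cxcr2-/- TANs in yellow. Filled points are past the thresholds, and Lrp1 and Pros1 lie farthest to the right. 2 genes with 3 or fewer counts over the BM libraries were left out.

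Of the 43 genes, 14 were never tested for lack of counts, among them the genes of fibrinogen (Fga, Fgb and Fgg), plasminogen (Plg, with 0 counts in all 12 libraries) and protein C (Proc). Fgb reached at most 1.70 CPM in a library. Fibrinogen and plasminogen, which thrombin and urokinase cleave, are known as liver products. Ggcx, the carboxylase that factors VII and X need for activity, had 2 counts over all 12 libraries, but it lies among 8 neighbouring protein-coding genes that had 0 to 22 counts each, Mat2a with 12 among them, so its count is not read as a lack of expression.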

How the data were processed

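RNA of sorted neutrophils was sequenced by the authors from rRNA-depleted, directional libraries, 4 in each of 3 groups, and reads were assigned to genes of mm10 with HTSeq. The deposited values are the raw counts of the authors per Ensembl gene and library. The annotation release and strand setting are not given in the sources used here, so overlapping genes are uncertain. HTSeq's summary lines name no gene and were left out, of which reads in no feature were 32.0% to 52.5% of a library. Symbols and positions came from GENCODE M21 (54587 of 55335 identifiers matched, all 9 members and 43 pathway genes among them), promoters from RefSeq.

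CPM were computed with TMM factors over 12 libraries. Each comparison was fitted on its 2 groups with edgeR 4.0.16 in R 4.3.3 (TMM, filterByExpr, robust quasi-likelihood test, Benjamini-Hochberg adjustment), and a call needed an adjusted p under 0.05 as well as a change of at least 1.5-fold. The standard error is the log2 fold change over the square root of F. The code was tested on simulated data. Genes compared for likeness had a mean log2 CPM (prior count 2) of 1 or more.

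The members, the pathway and marker lists and the tests were chosen with earlier results of these data known. Named are the members, Cxcr2 and, per comparison, the called pathway genes of largest change (against BM at most 6 higher and 6 lower, not overlapping and with a mean log2 CPM of 1 or more), except for 1 gene that is counted in the list but not reported here. Alternatives were other scalings, no filter, DESeq2 1.42.0, 12 libraries in one fit, no robust estimation, a replicate block, an adjustment for GC content and length, and each library left out.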

Additional observations from a re-analysis of the deposited data

Results flagged for a closer look

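In 2 of 60 groups of 4 libraries, taken over 20 genes, 1 library stood far from the other 3, by Dixon's test of the gap to the nearest library, and chance does this in about 1 of 20 groups. S100a10 was lowest in BM replicate 4 with 0.419 CPM, where the other BM libraries had 1.14 to 1.29 CPM. Serpind1 was highest in PyMT-Cxcr2-/- TAN replicate 4 with 3.44 CPM, beside 2.37 to 2.51 CPM in the others. None of the 9 members had such a library.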

How the results depend on the processing

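No difference of a member that was past the thresholds, and no call of a named pathway gene, changed its direction in any alternative. With library totals as the only scaling, the median log2 fold change of all genes moved from 0.09 to 0.53 in PyMT TANs and from 0.09 to 0.27 in PyMT-Cxcr2-/- TANs against BM, and from -0.07 to -0.26 between the TAN groups. Pathway genes that fell in PyMT TANs then numbered 1 instead of 4, members lower in PyMT-Cxcr2-/- TANs 1 instead of 2, and pathway genes that rose between the TAN groups 0 instead of 1. The mean level then was 61.1 CPM for F5, 14.4 CPM for Thbd in PyMT TANs, and 299.0 CPM for F5, 0.381 CPM for F7 and 632 CPM for Plaur in BM. Without a filter and with DESeq2, 7 pathway genes fell in PyMT TANs. Members higher in PyMT-Cxcr2-/- than in PyMT TANs numbered 3 without a filter, 4 with DESeq2 and 3 with 12 libraries in one fit. The GC and length adjustment left 0 pathway genes higher between the TAN groups and gave Lrp1 log2 fold changes of 5.09 and 5.32 against BM.

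The replicate numbers did not pair the libraries, since the residuals of libraries with equal numbers correlated on average at -0.04 over 12 pairs, beside 0.01 over 36 other pairs. With the replicate number as a block, with or without the GC and length adjustment, 0 members and 0 pathway genes were higher between the TAN groups, so F5 lost its call there (log2 fold change 1.44 and 1.47). The block alone left 5 instead of 6 members higher in PyMT TANs than in BM, as F13a1 lost its call (3.0 ± 1.11). Over all genes the block left 4 higher and 9 lower between the TAN groups in place of 255 and 110.

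Over fits without 1 library, the members lower in PyMT-Cxcr2-/- TANs than in BM numbered 1 to 2, and between the TAN groups 1 to 2 members and 0 to 1 pathway genes were higher, the 2 without PyMT TAN replicate 1. Without PyMT TAN replicate 2, calls over all genes between the TAN groups dropped to 10 higher and 13 lower. The cause of these changes was not tested. Genes at a few counts, such as Procr in BM, are limited by depth.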
